A study of Rattus norvegicus with 16 samples.

Results

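The genes described here code for the proteins of the cytosolic ribosome, measured by mRNA sequencing in hypothalamus and hippocampus of male Sprague Dawley rats. The fructose groups were fed fructose for 6 weeks, and the control groups had no treatment. The labels list 16 samples, 4 for each region and group, and the tables used here hold 15 libraries: 3 fructose and 4 control libraries of hypothalamus, and 4 fructose and 4 control libraries of hippocampus. Hypothalamus fructose replicate 4 was not analysed here. The labels give no age. Nor do they state that the samples of a group come from different animals, so a p-value here covers the spread between samples only, which may be technical. The samples are whole pieces of brain tissue, in which fewer cells of a type and less RNA per cell cannot be told apart.

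Loci were taken by symbol: Rpl or Rps followed by a digit, and Rplp0, Rplp1 and Rplp2, leaving out the ribosomal S6 kinases (Rps6k) and Rps4y2, with a mean of at least 1 FPKM in the region. FPKM is the number of fragments per kilobase of transcript and scaled to the mapped fragments of the library, so levels of different genes can be set side by side per length. This gave 72 loci of 67 symbols among the 17762 loci of the hypothalamus table, and 71 loci of 65 symbols among the 18087 of the hippocampus table. The tables were made separately with their own locus identifiers, and 60 symbols had a locus in both sets. The hypothalamus set holds 42 loci of the large subunit, 27 of the small subunit and 2 of the stalk. The hippocampus set holds 39, 29 and 2 of these. Each set also holds Rps19bp1, whose name fits the pattern but whose product binds the small-subunit protein RPS19 and is no part of the ribosome.

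A cytosolic ribosome has a small subunit, which reads the messenger RNA, and a large subunit, which joins the amino acids, and it holds about equal numbers of most of its proteins. The messenger RNAs of these proteins begin with a run of pyrimidines, the 5′ terminal oligopyrimidine (TOP) tract, through which mTORC1 and the RNA-binding protein LARP1 control their translation together. In neurons ribosomes sit in the cell body and also in dendrites, where proteins are made near synapses. The genes have many processed copies in mammalian genomes, which bears on how reads are assigned to them.

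The start sites of the genes that the results turn on are shown first, because a pyrimidine run at the start is more frequent among these genes than among others, though not present at each of them. The sequences are from RefSeq on the rat build GRCr8, 15 bases before the annotated start and 15 from it, written 5′ to 3′ with the longest pyrimidine run near the start in capitals. The first 5 are genes with small p-values between fructose and control, and the other 6 are genes whose control levels differed most between the regions. Rpl30 is missing here only because the promoters listed held no entry for it.
Rps28: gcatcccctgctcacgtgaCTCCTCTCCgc
Rpl10a: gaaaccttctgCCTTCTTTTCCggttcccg
Rps7: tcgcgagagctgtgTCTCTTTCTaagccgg
Rps9: tccggcggccacgTTTCTCTTTgtcacggg
Rps23: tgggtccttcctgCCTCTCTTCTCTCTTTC
Rpl29: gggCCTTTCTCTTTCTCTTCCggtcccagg
Rpl14: gggcgggCCCTCTCCCTTCTCgctgagcgc
Rps15: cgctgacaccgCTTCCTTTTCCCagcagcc
Rps24: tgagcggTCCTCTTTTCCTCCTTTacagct
Rpl22: gtagtgcgCCCCCCTCCCTTTCTgcctcct
Rpl22l1: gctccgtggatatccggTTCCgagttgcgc

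On GRCr8 these windows lie at chr7:15311319-15311348 on the minus strand for Rps28, chr20:6390518-6390547 on the plus strand for Rpl10a and chr6:50999431-50999460 on the minus strand for Rps7. The Rps9 window lies at chr1:74430423-74430452 on the minus strand and the Rps23 window at chr2:23814502-23814531 on the plus strand. Rpl29 lies at chr8:115947628-115947657 and Rpl14 at chr8:129163605-129163634, both on the plus strand, and Rps15 at chr7:10068101-10068130 on the minus strand. The windows of Rps24 at chr16:96502-96531, Rpl22 at chr5:168117946-168117975 and Rpl22l1 at chr2:113683181-113683210 are on the plus strand. Each window spans the annotated transcription start, so its later part belongs to the first exon.

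The table of promoters had an entry for 62 of the 80 ribosomal protein symbols. A run of 8 or more consecutive C or T touching the 10 bases before to 10 bases after the start was found in 42 of these, or 67.7%, with a median longest run of 10 bases. Of the 27457 promoters listed, 13.2% held such a run, with a median longest run of 4 bases. Read on the opposite strand, 1.61% of the ribosomal protein promoters and 14.7% of all promoters held one. Rpl22l1 had the shortest longest run of the 11 sequences shown, at 4 bases, and its paralog Rpl22 had 15. A match of letters is a description of the sequence and does not show that a transcript starts there.

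In each region the fructose and the control library numbered 1 stood apart from the rest. Across the loci tested, the log2 values of the replicate 1 libraries had r = 0.980 with each other in hypothalamus and 0.985 in hippocampus, against 0.880 to 0.909 and 0.840 to 0.896 with the other libraries, which had 0.956 to 0.979 and 0.934 to 0.979 among themselves. Each group holds 1 such library, and results that rest on them are given with and without them. The depth of the libraries is unknown, since the tables hold FPKM without read counts. Defining genes of the regions fitted the labels: Avp and Oxt, which code for hypothalamic peptide hormones, had summed means of 2505 and 1535 FPKM in hypothalamus, against 0.517 and 0.735 FPKM in hippocampus. Neurod6, a gene of hippocampal pyramidal cells, had 1.03 FPKM in hypothalamus and 68.3 FPKM in hippocampus.

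Rpl30 codes for a large-subunit protein that is also known as a binder of the selenocysteine insertion element in mammalian messenger RNAs. It has 1 locus in each table. In hippocampus, locus XLOC_025673 had 6.69, 1.17, 0.921 and 1.19 FPKM in fructose replicates 1 to 4, against 12.9, 8.23, 18.6 and 19.5 FPKM in control replicates 1 to 4. Each fructose library lay below each control library, and the fructose library nearest to the controls was replicate 1. The means were 2.49 ± 2.80 FPKM with fructose and 14.8 ± 5.25 FPKM in controls (SD, n = 4 each). The limma estimate was a log2 fold change of -2.38 ± 0.47 (SE) on the log2(FPKM + 1) scale, with an unadjusted p of 0.000829. With Benjamini-Hochberg adjustment over the 11385 loci tested the limma p was 0.9999, so Rpl30 did not pass the threshold of 0.05. Without both replicate 1 libraries the limma estimate was -2.89, with an adjusted p of 0.260.

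In hypothalamus, Rpl30 (XLOC_024397) had 1.16, 2.28 and 1.29 FPKM in fructose replicates 1 to 3, against 2.04, 8.28, 14.7 and 8.29 FPKM in control replicates 1 to 4. Control replicate 1 lay below fructose replicate 2, so the groups overlapped, and the other 3 control libraries lay above each fructose library. Between libraries of the same number fructose was lower in each of the 3 pairs, and with a replicate block in the limma fit the estimate was -1.59 with an adjusted p of 0.463. The means were 1.58 ± 0.608 FPKM with fructose (SD, n = 3) and 8.32 ± 5.16 FPKM in controls (SD, n = 4). Its limma log2 fold change was -1.66 ± 0.51 (SE), with an unadjusted p of 0.0125 and an adjusted p of 0.9998. Without both replicate 1 libraries it was -2.01, with an adjusted limma p of 0.233. The hypothalamus effect minus the hippocampus effect was 0.72 on the log2 scale, with an unadjusted limma p of 0.317. Rpl30 thus lay lower with fructose in both regions without passing the adjusted test in either, and the difference between the regions did not pass its test. It was chosen for following with these values known.

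Rps9 codes for a small-subunit protein that joins the subunit early in its assembly. It has 2 loci in each table. In hippocampus, XLOC_001687 had 0.0670, 0, 0.0790 and 0 FPKM in fructose replicates 1 to 4, against 6.65, 4.99, 0 and 6.47 FPKM in control replicates 1 to 4. The fructose libraries were at or near 0, and so was control replicate 3, while the other 3 control libraries lay between 4.99 and 6.65 FPKM. For this locus the limma log2 fold change was -2.05 ± 0.61 (SE), with an unadjusted p of 0.00919 and an adjusted p of 0.9999. This value depends on control replicate 3. Without that library the limma estimate was -2.76 with an adjusted p of 0.00221. XLOC_001687 was then the 1 locus that passed, among 71 ribosomal protein loci and among the 11385 loci tested. The library left out is the control that lay with the fructose libraries here, and the locus reached the minimum mean through its controls. That pass is therefore no support for a difference.

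The other hippocampal Rps9 locus, XLOC_001689, had 3.08, 0.676, 3.87 and 1.51 FPKM in fructose replicates 1 to 4, against 9.15, 7.15, 1.21 and 7.17 FPKM in control replicates 1 to 4. Control replicate 3 was again the low control library and lay among the fructose libraries. Its limma log2 fold change was -1.04 ± 0.53 (SE), with an unadjusted p of 0.0825 and an adjusted p of 0.9999. In hypothalamus the Rps9 loci XLOC_001681 and XLOC_001683 did not reach the minimum for testing. The first was listed at 0.0920, 0 and 0 FPKM with fructose and at 0, 0.438, 0 and 0 FPKM in controls, and the second at 0, 0 and 0.397 FPKM with fructose and at 0, 0.175, 0 and 0 FPKM in controls. A protein of every ribosome listed at or near 0 is a value of the table and does not show that the gene is silent.

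**Figure D1:**
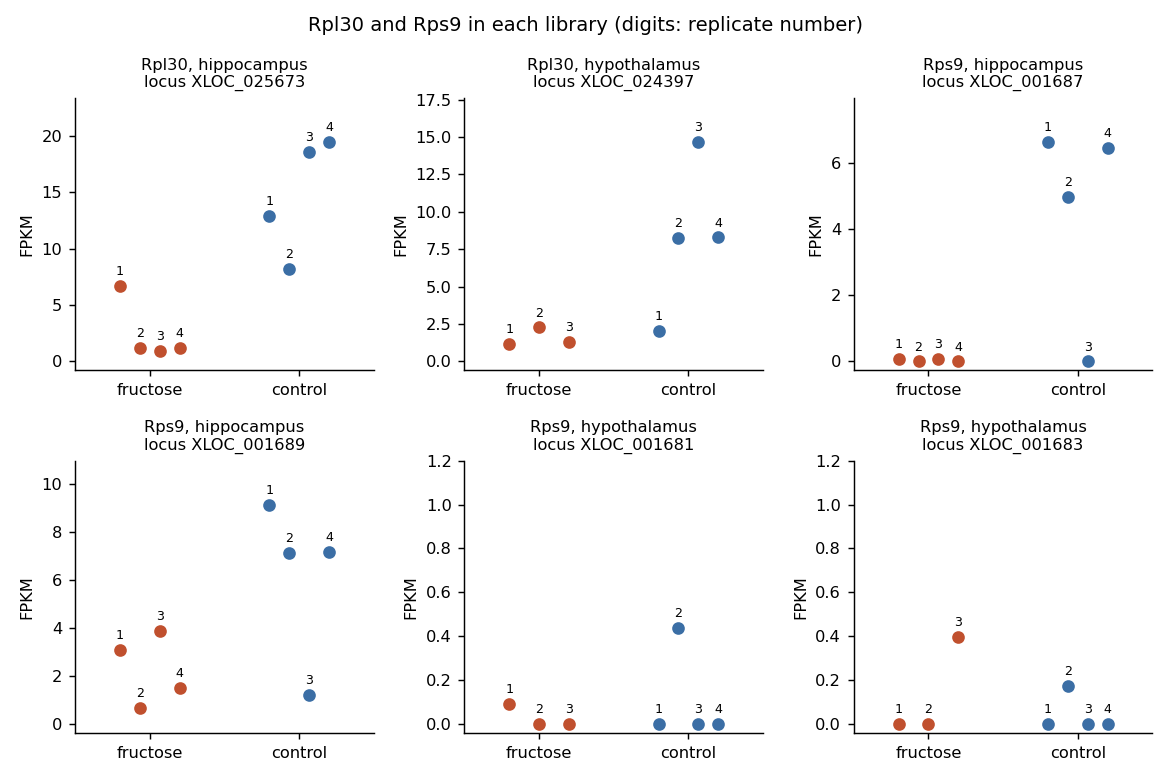
FPKM of the Rpl30 and Rps9 loci in each library, with fructose left of control and the replicate number above each point. Hippocampal Rpl30 shows 4 fructose libraries between 0.921 and 6.69 FPKM below 4 control libraries between 8.23 and 19.5 FPKM, and at both hippocampal Rps9 loci control replicate 3 sits with the fructose libraries.

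By the likeness of log2(FPKM + 1) to hippocampal Rpl30 over the 8 libraries, the nearest loci of the whole table were Mplkip, Fchsd1 and Arsj, with Pearson r of 0.930, 0.8997 and 0.892. Mplkip had 3.38 to 4.12 FPKM in fructose libraries, against 3.88 to 4.52 FPKM in control libraries. Arsj, an arylsulfatase gene, had 1.25, 0.939, 0.920 and 0.758 FPKM with fructose, against 1.38, 1.77, 1.47 and 1.85 FPKM in controls, with a limma log2 fold change of -0.41, an unadjusted p of 0.0147 and an adjusted p of 0.9999. Fchsd1 had a log2 fold change of -0.11. These are the highest of many correlations over few libraries that share the 2 treatment groups, and they are given as a description. Among the other 70 ribosomal protein loci the median r with Rpl30 was 0.142, with 53 above 0, and the highest, 0.612, was that of an Rps9 locus. The median over the loci tested was -0.047. Most ribosomal protein loci therefore followed Rpl30 only weakly across these libraries.

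Over the hypothalamus, 0 of the 72 ribosomal protein loci passed the adjusted limma test of fructose against control, where 0.0087% of the loci tested passed (1 of 11498). At an unadjusted p under 0.05, 2 loci (2.78%) lay higher and 3 (4.17%) lower, against 1.02% and 2.12% of the loci tested. The 3 lower were Rps28, Rpl30 and Rpl10a XLOC_015641. Of these, Rpl30 was chosen for following with its values known, and Rps28 reached the minimum of 1 FPKM through its control libraries. The groups did not overlap at 0 loci with fructose higher and at 3 with fructose lower (4.17%), Rps28 among them, against 1.75% and 1.58% of the loci tested. The log2 fold change was below 0 at 51 loci and above 0 at 21, with a median of -0.11, while 48.5% of the loci tested were below 0 and their median was 0.0065. For large-subunit loci 32 of 42 were below 0, with a median of -0.11, and for small-subunit loci 17 of 27, with a median of -0.12.

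The hypothalamic counts moved with the libraries used. Without both replicate 1 libraries, 15 loci (20.8%) lay lower at an unadjusted limma p under 0.05, against 4.63% of the loci tested. Of these, 8 were of the large and 7 of the small subunit. In that fit 2 loci (2.78%) lay higher, against 4.74%. The groups then did not overlap at 21 loci with fructose lower (29.2%), against 12.7% of the loci tested, and at 3 with fructose higher (4.17%), against 14.8%. The median over the 72 loci was then -0.20. With the replicate number as a block, 13 loci (18.1%) lay lower and 2 higher at an unadjusted limma p under 0.05, against 4.32% and 2.28% of the loci tested. Leaving out fructose replicate 1 alone gave 14 lower and 2 higher, against 3.12% and 2.77% of the loci tested, and leaving out control replicate 3 alone gave 8 lower and 3 higher, against 1.31% and 0.635%. Leaving out any of the other 5 libraries alone gave 2 to 4 of the 72 loci lower and 0 to 1 higher. Over the 11498 loci tested these fits gave 104 to 372 lower and 42 to 282 higher. Without control replicate 1 alone, 3 of the 72 lay lower and 1 higher, against 313 and 282 of the 11498. With array weights 17 lay lower and 6 higher, against 9.38% and 8.88%. In each of these fits 0 ribosomal protein loci passed the adjusted limma test. The loci are not independent of each other, since they share libraries.

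Over the hippocampus, 0 of the 71 ribosomal protein loci passed the adjusted limma test, where 0% of the 11385 loci tested passed. At an unadjusted p under 0.05, 0 loci lay higher and 3 (4.23%) lower, against 0.334% and 0.474% of the loci tested. The 3 were Rpl30, Rps9 XLOC_001687 and Rps23, of which Rpl30 and Rps9 were chosen for following with their values known. The groups did not overlap at 0 loci with fructose higher and at 1, Rpl30, with fructose lower, against 0.255% and 0.413% of the loci tested. The log2 fold change was below 0 at 51 loci and above 0 at 20, with a median of -0.074, while 51.4% of the loci tested were below 0 and their median was -0.0038. For large-subunit loci 28 of 39 were below 0, with a median of -0.068, and for small-subunit loci 21 of 29, with a median of -0.14.

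The direction of the hippocampal median rested on single libraries. Without both replicate 1 libraries 36 loci lay above 0 and 35 below, with a median of 0.0077. Leaving out fructose replicate 4 gave a median of 0.028, and leaving out control replicate 1 gave 0.022. The hypothalamic median stayed below 0 in each of the 18 alternatives tried, between -0.26 and -0.033, but these alternatives share their libraries. Without fructose replicate 3 it was -0.033, with 32 loci above 0 and 40 below. The median deviation of the hypothalamic loci had an SD of 0.154 between libraries of a group, larger than the median fold change of -0.11. No direction can be given for the ribosomal proteins of hippocampus as a group, and none was tested for those of hypothalamus.

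**Figure D2:**
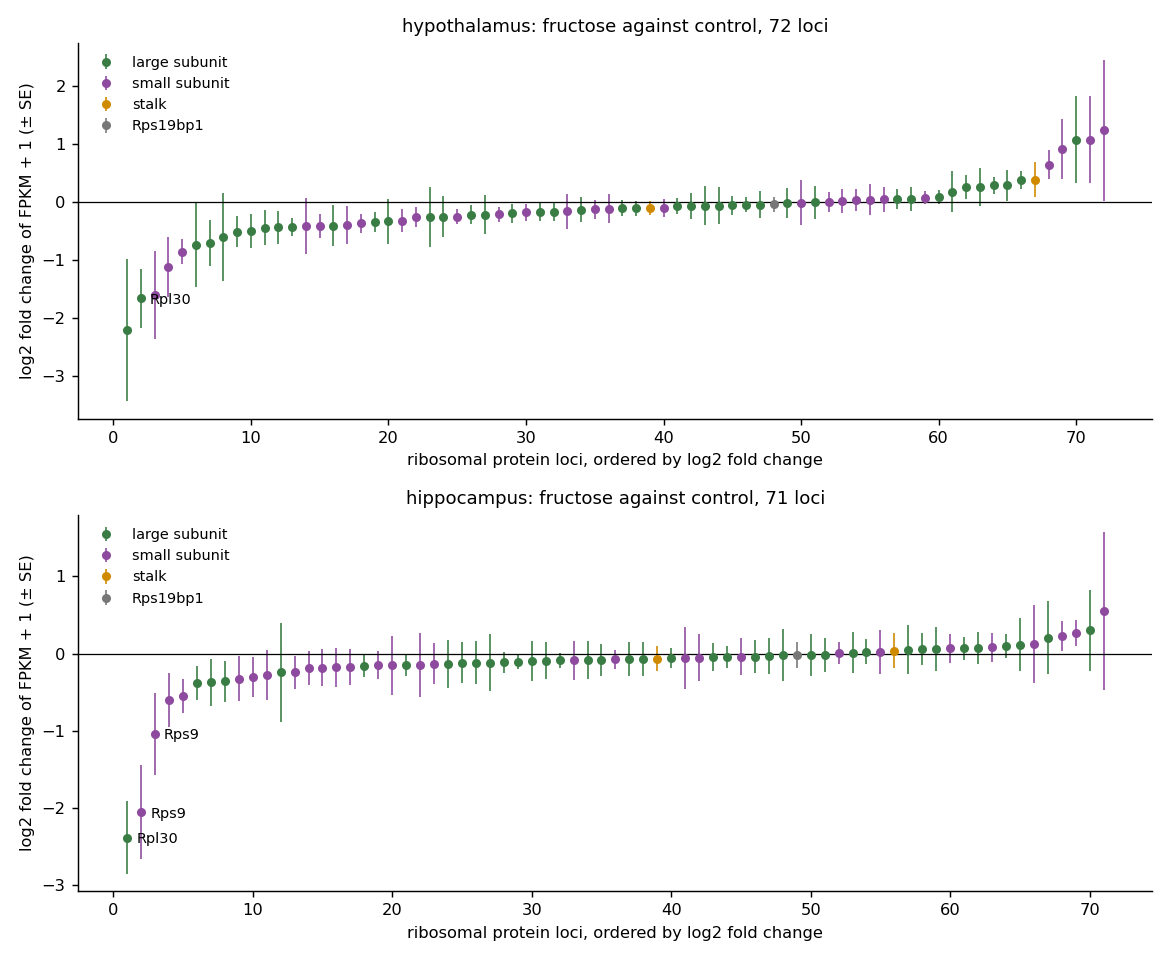
The limma log2 fold change of FPKM + 1, fructose against control, of each ribosomal protein locus tested, ordered by size, with bars of 1 SE and colours for the subunit. In hypothalamus 51 of 72 points and in hippocampus 51 of 71 points lie below 0, most of them close to it, with the Rpl30 and Rps9 loci labelled.

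Many of the levels moved together by library. In hypothalamus the ribosomal protein loci held 2.08%, 1.78% and 1.64% of the summed FPKM in fructose replicates 1 to 3, against 1.99%, 1.81%, 2.01% and 1.74% in control replicates 1 to 4. Fructose replicate 3 had the lowest value at 24 of the 72 loci. The replicate 1 libraries had the highest value at 16 loci with fructose and at 22 in control, but also the lowest at 7 and 12. Such counts are not given over all loci tested. In hippocampus the share was 1.46%, 1.64%, 1.51% and 1.03% in fructose replicates 1 to 4, against 1.89%, 1.11%, 1.36% and 1.54% in control replicates 1 to 4. Fructose replicate 4 had the lowest value at 34 of the 71 loci, and control replicate 1 had the highest at 36. The median deviation from the locus mean was -0.39 on the log2 scale in hippocampal fructose replicate 4, and 0.30 in control replicate 1. The fructose and control shares overlapped in both regions.

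**Figure D3:**
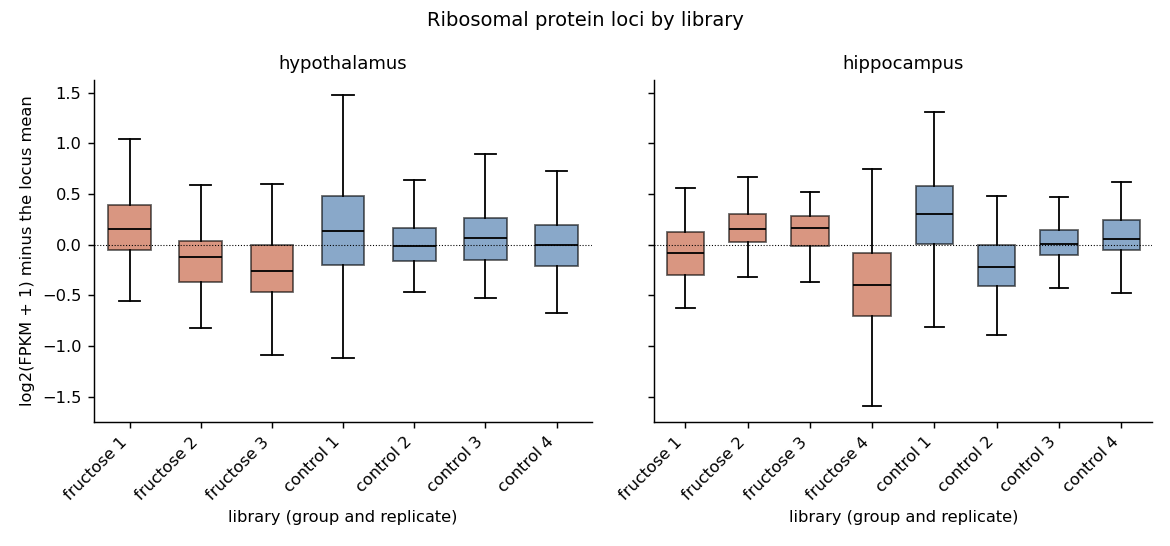
Deviation of each ribosomal protein locus from its mean over the libraries of the region, on the log2(FPKM + 1) scale, as a box (quartiles and median) for each library, with whiskers to 1.5 times the box and fructose left of control. Within a group the boxes differ between libraries, with hippocampal fructose replicate 4 lowest (median -0.39) and control replicate 1 highest (median 0.30).

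Markers of meningeal fibroblasts differed in sign between the regions, and 0 of the 7 tested passed the adjusted limma test in either. The 8 listed genes summed to 24.9 to 142 FPKM in hypothalamus fructose libraries, against 154 to 279 FPKM in control libraries, and the 7 tested had log2 fold changes below 0, with a median of -1.61. At an unadjusted limma p under 0.05 there were 5 of them, against 2.12% of the loci tested. In hippocampus they summed to 153 to 601 FPKM with fructose, against 28.8 to 352 FPKM in controls, and the 7 tested were above 0, with a median of 1.47 and 1 at an unadjusted p under 0.05, against 0.334% of the loci tested. The sums overlapped in hippocampus, and the difference between the regions was not tested for this list. Col1a2, one of the defining genes, was listed at or near 0 in both tables. Their part in the ribosomal protein values was not tested.

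Among the small-subunit genes of hypothalamus, Rps28, whose protein sits where messenger RNA leaves the subunit, had the smallest p-value. Its locus had 0.508, 0.627 and 0.598 FPKM with fructose, against 2.60, 1.35, 1.18 and 2.57 FPKM in controls. Each fructose library lay below each control library. The locus reached the minimum mean of 1 FPKM through its control libraries, as did Rps9 XLOC_001687 in hippocampus. The limma log2 fold change was -0.85 ± 0.22 (SE), with an unadjusted p of 0.00516 and an adjusted p of 0.9998. In hippocampus Rps28 had a mean of 0.126 FPKM and was not tested.

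Rps7, whose protein is also known to bind the p53 regulator MDM2, had 10.8, 10.8 and 7.82 FPKM with fructose, against 11.8, 13.4, 11.5 and 14.8 FPKM in controls of hypothalamus. The groups did not overlap, and the limma log2 fold change was -0.37 with an unadjusted p of 0.0512. Rps29, a small zinc-binding protein, had 279, 23.6 and 114 FPKM with fructose, against 446, 282, 168 and 287 FPKM in controls. Fructose replicate 2 lay far below the other libraries at this gene, while fructose replicate 1 lay among the controls. The limma log2 fold change of Rps29 was -1.60 ± 0.76 (SE), with an unadjusted p of 0.0702.

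Several small-subunit loci lay higher with fructose in hypothalamus without passing the adjusted test. Rps25, whose protein is needed for initiation at some viral internal entry sites, had 21.0, 14.2 and 9.29 FPKM with fructose at XLOC_025340, against 8.37, 10.02, 9.15 and 7.22 FPKM in controls, an unadjusted limma p of 0.0356. Fructose replicate 3 lay within the control range. Its other locus, XLOC_025993, had means of 5.08 FPKM with fructose and 5.67 FPKM in controls, a log2 fold change of -0.11. Rps16 had 148, 245 and 204 FPKM with fructose, against 61.3, 109, 271 and 59.5 FPKM in controls, so that control replicate 3 was above each fructose library. Rps27a, made as a fusion of ubiquitin with a ribosomal protein, was listed at 8.49 FPKM in fructose replicate 2 and at 0 in the other 6 libraries.

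Of the large-subunit genes of hypothalamus, Rpl10a, whose protein forms the L1 stalk near the exit of transfer RNA, had 13.9, 12.3 and 13.6 FPKM with fructose at XLOC_015641, against 20.3, 16.4, 15.3 and 21.4 FPKM in controls. The groups did not overlap, with a limma log2 fold change of -0.43 and an unadjusted p of 0.0227. Its other locus, XLOC_015980, carried most of the signal, with 302, 192 and 284 FPKM with fructose and 153, 234, 360 and 153 FPKM in controls, and the groups overlapped there with a log2 fold change of 0.27. A statement on Rpl10a therefore depends on which locus is read, and the split of reads between them cannot be checked in these tables.

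Rpl35, whose protein lies near the end of the exit tunnel, also had loci of opposite sign in hypothalamus. XLOC_016489 had 1.72, 2.03 and 1.97 FPKM with fructose, against 0.945, 1.09, 1.73 and 1.24 FPKM in controls, with an unadjusted limma p of 0.0413 and a log2 fold change of 0.38. XLOC_017379 had 67.5, 40.5 and 30.5 FPKM with fructose, against 55.9, 60.0, 88.2 and 50.4 FPKM in controls, a log2 fold change of -0.50 with an unadjusted p of 0.133. The locus with the higher level thus lay lower with fructose and the locus with the lower level higher, neither past the adjusted test. Rpl28 had 86.9, 115 and 121 FPKM with fructose, against 77.7, 88.2, 89.2 and 93.4 FPKM in controls. Rpl17, whose protein lines the exit tunnel, had 35.4, 25.7 and 19.7 FPKM with fructose, within the control range of 3.02 to 36.0 FPKM.

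Rpl31 had the largest spread of the hypothalamic set. It had 2.07, 3.58 and 1.74 FPKM with fructose, against 77.3, 2.39, 2.55 and 63.0 FPKM in controls. Control replicates 1 and 4 stood far above the other 5 libraries, and control replicates 2 and 3 lay among the fructose libraries. Its log2 fold change by limma was -2.21, with an unadjusted p of 0.111. Rps6, the substrate of the S6 kinases, varied in a similar way at XLOC_021290, which had 0, 21.1 and 10.1 FPKM with fructose and 4.91, 0, 7.26 and 0 FPKM in controls, so that libraries of both groups were listed at 0. Its second hypothalamic locus, XLOC_021291, had 0.637, 1.88 and 0.579 FPKM with fructose and at most 0.164 FPKM in controls, below the mean needed for testing.

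In hippocampus Rps23, a protein of the decoding centre, had 33.7, 36.4, 49.98 and 57.5 FPKM with fructose, against 53.1, 55.3, 88.0 and 64.7 FPKM in controls. Fructose replicate 4 lay above control replicates 1 and 2, and the other fructose libraries lay below each control library. The limma log2 fold change was -0.55 ± 0.22 (SE), with an unadjusted p of 0.0358 and an adjusted p of 0.9999. Rps10, which is ubiquitylated on stalled ribosomes, had 3.25, 4.85, 3.38 and 2.86 FPKM with fructose, against 4.47, 4.85, 13.7 and 3.68 FPKM in controls, where control replicate 3 alone lay far above the rest. Rpl22l1, a paralog of Rpl22, had 166, 155, 228 and 176 FPKM with fructose, against 166, 252, 213 and 331 FPKM in controls, an unadjusted p of 0.125.

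The hippocampal loci that lay higher with fructose had still larger p-values. Rps6 XLOC_021758 had 6.59, 6.86, 5.46 and 9.17 FPKM with fructose, against 4.53, 5.79, 7.05 and 5.18 FPKM in controls, with a limma log2 fold change of 0.27 and an unadjusted p of 0.158. Its locus XLOC_022439 had means of 18.2 FPKM with fructose and 19.7 FPKM in controls, and XLOC_022438 had 0.456 FPKM with fructose and 0.697 FPKM in controls. Rps15a had 6.73, 12.7, 13.6 and 9.47 FPKM with fructose, against 8.49, 8.24, 8.85 and 8.89 FPKM in controls, an unadjusted p of 0.273. Rpl23 had 120, 562, 555 and 373 FPKM with fructose, against 176, 212, 361 and 447 FPKM in controls, and both replicate 1 libraries were the lowest of their group.

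The other hippocampal loci given here, of either direction, differed by less than the spread of their libraries. Rpl32 XLOC_020193 had means of 17.8 ± 2.32 FPKM with fructose and 16.7 ± 3.12 FPKM in controls, and its other locus, XLOC_020833, was near 0. Rpl36a had 1.35 ± 0.182 FPKM with fructose and 1.26 ± 0.329 FPKM in controls (SD, n = 4 each for both genes). Rps16 XLOC_000394 spanned 0.599 to 38.6 FPKM in fructose libraries and 3.32 to 18.02 FPKM in control libraries, the largest range within a group of the hippocampal set, while its locus XLOC_001897 had means of 104 FPKM with fructose and 115 FPKM in controls. Rpl12, at the base of the stalk, had 3.98, 6.81, 0.865 and 2.62 FPKM with fructose, against 9.81, 4.69, 4.77 and 0.443 FPKM in controls, a log2 fold change of -0.24.

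The stalk, which recruits the elongation factors to the ribosome, did not differ beyond the spread of its libraries. In hypothalamus Rplp0, the stalk's anchor, had 407, 394 and 369 FPKM with fructose, against 475, 415, 369 and 419 FPKM in controls. Rplp1 had 39.1, 21.5 and 23.9 FPKM with fructose there, against 17.0, 18.4, 34.2 and 16.6 FPKM in controls. In hippocampus Rplp0 had means of 138 ± 35.4 FPKM with fructose and 132 ± 26.1 FPKM in controls (SD, n = 4 each). Rplp1 had 45.3 ± 5.42 FPKM with fructose and 47.9 ± 9.36 FPKM in controls in hippocampus (SD, n = 4 each). Rplp2, the partner of Rplp1, has 2 loci in each table, listed at 0 in every library except hippocampal fructose replicate 4 at XLOC_001095, with 0.112 FPKM.

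The effect of fructose was compared between the regions over the 51 ribosomal protein symbols with 1 locus in each table and a mean of at least 1 FPKM in both. At an adjusted limma p under 0.05, 0 of them differed, against 0% of the 8239 symbols tested, and at an unadjusted p under 0.05 also 0, against 2.54%. Rps29 and Rpl10 were among the symbols with the smallest p-values. The hypothalamus effect minus the hippocampus effect was -1.54 for Rps29, with an unadjusted p of 0.0848, and -0.51 for Rpl10, with 0.1796. Without the replicate 1 libraries 6 of the 51 had an unadjusted limma p under 0.05, against 3.91% of the symbols tested, and 0 an adjusted one. These 6 were of the small subunit, to which 17 of the 51 belong. Among them were Rps29, Rps7, Rps3, Rps3a and Rps15a, with differences between -2.26 for Rps29 and -0.59 for Rps7, named after their values were seen. In hippocampus Rps29 had means of 219 ± 71.7 FPKM with fructose and 238 ± 118 FPKM in controls (SD, n = 4 each).

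The messenger RNA levels differed widely between the loci, while a ribosome holds about equal numbers of most of its proteins. These are unlike measures: protein was not measured, and FPKM can be affected by reads shared with gene copies. In hypothalamus Rpl41, the smallest ribosomal protein, which lies between the subunits, had the highest mean, 1395 ± 199 FPKM (SD over 7 libraries), and held 16.4% of the ribosomal protein FPKM. Rpl14 had 586 ± 64.5 FPKM and Rpl29 had 579 ± 53.7 FPKM. Rpl14, Rpl29 and the next in order, Rps15 with 547 ± 97.4 FPKM, did not differ beyond their spread. At the low end were Rpl39 with 1.33 ± 0.168 FPKM and Rps27a with 1.21 ± 3.21 FPKM, while the highest mean left out by the minimum was 0.798 FPKM, of the Rps12 locus XLOC_001568, whose other locus, XLOC_000063, had a mean of 4.09 FPKM.

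In hippocampus Rpl41 was again highest, with 1321 ± 296 FPKM (SD over 8 libraries), or 24.3% of the ribosomal protein FPKM. Rpl23 had 351 ± 169 FPKM, Rpl3, a protein close to the peptidyl transferase centre, 314 ± 29.8 FPKM, and Rpl35 XLOC_018293 295 ± 87.2 FPKM, and these 3 did not differ beyond their spread. The other hippocampal Rpl35 locus, XLOC_017369, had 2.55 ± 1.25 FPKM with fructose and 2.78 ± 1.03 FPKM in controls (SD, n = 4 each). Rpl3 has 2 loci in hypothalamus, where XLOC_024589 had 239 ± 62.0 FPKM with fructose (SD, n = 3) and 225 ± 30.5 FPKM in controls (SD, n = 4), and XLOC_023909 had 1.22 ± 0.433 FPKM with fructose and 2.22 ± 0.991 FPKM in controls. The lowest were Rpl36a with 1.30 ± 0.251 FPKM and Rpl9 with 1.06 ± 0.392 FPKM, and the highest mean left out was 0.791 FPKM, of Rpl38. The median level over the members was 20.5 FPKM in hypothalamus and 17.4 FPKM in hippocampus, against 12.1 and 11.1 FPKM over the loci tested.

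The minimum of 1 FPKM left out 20 of 92 named loci in hypothalamus and 21 of 92 in hippocampus. Of these, 10 loci of 6 symbols in hypothalamus and 7 loci of 4 symbols in hippocampus were listed at 0 in every library. Both loci of Rpl7a, of Rpl8 and of Rps19 were at 0 in both tables, although each codes for a protein of every ribosome. RefSeq on GRCr8 names copies for 75 of the 80 symbols, 1054 copies in all, with a median of 14 and a maximum of 36. Rpl30 has 15 such copies and Rps9 has 17, and 0 of the copies are in the tables under these names. Across symbols the number of copies and the summed level had a Spearman rho of -0.081 over 76 symbols in hypothalamus and -0.22 over 77 in hippocampus, given as a description. The median number of copies was 14 for symbols under 1 FPKM and 14.5 for the others in hypothalamus, and 13 and 15 in hippocampus.

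Control levels were set side by side between the regions for the 51 symbols with 1 tested locus in each table. The tables were made separately, so this was not tested. Over 4 times apart were 23.5% of the 51 symbols, 9 higher and 3 lower in hypothalamus, against 6.02% of the 8239 symbols compared. Of the 51 symbols 32 were higher in hypothalamus, and the median log2 ratio was 0.56, against 0.23 over the symbols compared. Among the 9 higher in hypothalamus were Rpl29, Rpl14, Rps15, Rpl15, Rps2, Rpl10 and Rpl19, and the 3 lower were Rpl22, Rps24 and Rpl22l1.

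Rpl29 had a control mean of 597 ± 59.7 FPKM in hypothalamus and 30.6 ± 16.2 FPKM in hippocampus (SD, n = 4 each), a ratio of 19.5. Rpl14 had 602 ± 39.0 FPKM in hypothalamus and 34.5 ± 11.6 FPKM in hippocampus, a ratio of 17.4. For both genes the lowest hypothalamus library lay far above the highest hippocampus library. The tables were made separately with their own loci. What part this and reads shared with gene copies have in the gaps between regions was not tested. In the other direction, Rps24 had 7.52 ± 3.011 FPKM in hypothalamus and 190 ± 35.0 FPKM in hippocampus, and Rpl22 had 9.53 ± 3.28 FPKM in hypothalamus and 70.1 ± 16.8 FPKM in hippocampus. Rpl22l1, the paralog that Rpl22 represses in mouse, had 4.57 ± 1.65 FPKM in hypothalamus and 241 ± 69.7 FPKM in hippocampus. Both paralogs thus lay on the same side. Rps13 was listed at 0 in each hypothalamus library, where its hippocampal control mean was 8.97 FPKM. Rpl30 had a control mean of 8.32 FPKM in hypothalamus and 14.8 FPKM in hippocampus, with overlapping libraries.

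**Figure D4:**
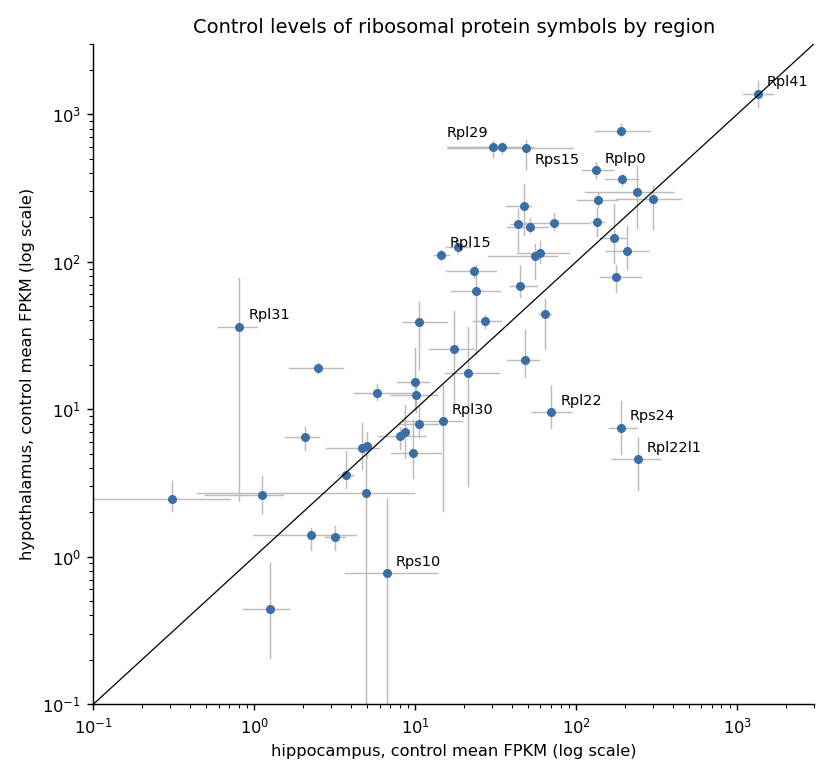
Control mean FPKM of 55 ribosomal protein symbols with 1 locus in each table and a control mean above 0.3 FPKM in both, hypothalamus against hippocampus on log axes, with grey bars from the lowest to the highest control library (drawn from 0.1 FPKM where lower). The line marks equal levels. Rpl29 and Rps15 lie far above it, and Rps24, Rpl22l1 and Rpl22 far below.

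Genes that work beside the ribosomal proteins were taken as lists, and 0 of their members passed the adjusted limma test in either region. Of 30 tested loci of nucleolar ribosome assembly in hypothalamus, 14 were below 0 and 0 had an unadjusted p under 0.05. In hippocampus 20 of 29 were below 0, 1 with an unadjusted p under 0.05: Nmd3, the export adaptor of the large subunit, had 8.87 ± 1.74 FPKM with fructose and 11.9 ± 1.63 FPKM in controls (SD, n = 4 each), without overlap of the groups, and an unadjusted p of 0.0334. Gnl2, a GTPase of large-subunit assembly, had 7.94 ± 0.145 FPKM with fructose and 8.83 ± 0.743 FPKM in controls, also without overlap. Over the loci tested in hippocampus 0.474% lay lower at an unadjusted p under 0.05, and 0.413% lay lower without overlap. In hypothalamus the smallest p-values of this list were those of Nop10 and Npm1, at 0.198 and 0.206.

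For RNA polymerase I, which makes ribosomal RNA, 5 of 15 loci were below 0 in hypothalamus and 7 of 14 in hippocampus. Its members with the smallest p-values were Twistnb and Polr1b in hippocampus, with 0.151 and 0.164, and both loci of Polr1b in hypothalamus, with 0.387 and 0.452. For other messenger RNAs with a TOP tract, 12 of 17 were below 0 in hypothalamus, with a median of -0.037, and 11 of 15 in hippocampus, with a median of -0.040. Eef1g and Fau had the smallest p-values of this list in hypothalamus, 0.09999 and 0.135, and Hnrnpa1 and Eef1b2 in hippocampus, 0.112 and 0.198. For mTORC1 and the control of ribosomal messenger RNAs 4 of 12 loci were below 0 in hypothalamus and 8 of 14 in hippocampus. Eif4ebp1, a repressor of cap-dependent translation, had 11.3 ± 4.94 FPKM with fructose (SD, n = 3) and 17.1 ± 5.93 FPKM in controls (SD, n = 4) of hypothalamus, and Eif4ebp2, a related repressor, had 22.3 ± 11.04 FPKM with fructose and 13.9 ± 3.36 FPKM in controls there. Rps6kb1, the S6 kinase gene, had an unadjusted p of 0.0789 at one hippocampal locus and 0.481 at the other.

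The mitochondrial ribosome, which has its own set of proteins, gives a comparison with the cytosolic one. In hypothalamus 38 of its 64 tested loci were below 0, with a median of -0.036, against 48.5% of all loci tested. In hippocampus 50 of 64 were below 0, with a median of -0.088, against 51.4% of all loci tested and 51 of 71 cytosolic loci. Without both replicate 1 libraries 35 of the 71 cytosolic loci of hippocampus were below 0. The mitochondrial list is not given without these libraries. In hypothalamus Mrpl49 had 128 ± 17.3 FPKM with fructose (SD, n = 3) and 183 ± 44.6 FPKM in controls (SD, n = 4), with an unadjusted limma p of 0.0584, and Mrpl19 had a p of 0.154. In hippocampus Mrpl51 had 25.9 ± 1.83 FPKM with fructose and 31.7 ± 3.60 FPKM in controls (SD, n = 4 each), with an unadjusted limma p of 0.0379, and Mrps31 had 9.91 ± 1.31 FPKM with fructose and 12.2 ± 1.12 FPKM in controls, with 0.0498.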

How the data were processed

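Total RNA was enriched for poly-A RNA and reverse transcribed with random primers, per the labels' protocols, which name no strand-specific step, so reads of overlapping antisense genes cannot be told apart. The deposited values are FPKM per locus with a status flag, made by the authors with TopHat, Bowtie, Cufflinks, Cuffdiff, TopHat2 and Bowtie2 on the build rn5, per the submitters' processing notes, which give no versions and no roles. How reads shared with gene copies were assigned is not given in the sources used here. The status flag was OK at each ribosomal protein locus.

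Loci with a mean of at least 1 FPKM were tested on log2(FPKM + 1), so fold changes of low genes are understated. The moderated test of limma 3.58.1 in R 4.3.3 (prior variance with a trend, no term but the group) was adjusted after Benjamini and Hochberg over all loci tested, at a threshold of 0.05. The difference between regions was tested as an interaction, over symbols that have 1 locus per table. The script was tested on simulated data. The members, the lists and the tests were chosen with earlier results of these data known. Alternatives were other pseudocounts, minimums, scalings and weights, summed loci, the replicate block, and leaving out libraries. Plots were made in Python 3.11.15 with matplotlib 3.10.9.

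The genes named are Rpl30 and Rps9, the 6 higher and the 6 lower loci of each region with the smallest p, the 4 highest and 2 lowest levels, the 3 with the largest range within a group, the stalk, the 3 symbols with the smallest p between regions, the 3 loci most like Rpl30, and the 2 members of each other list with the smallest p. The loci of a symbol named by this rule are given for the region described. The genes over 4 times apart between regions, Rps13, the loci at 0 in both tables and the loci just under the minimum were named after their values were seen. Some genes that this rule names are not reported here.

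The labels number the replicates without a word on what a number means. Deviations of same-numbered libraries from their group means had correlations of 0.848, 0.488 and 0.456 in hypothalamus and 0.892, 0.208, 0.481 and 0.410 in hippocampus. Each was above 0.1, so the number was also tried as a block. The replicate 1 libraries stood apart in both groups, and this alone can raise such correlations at each number. Over replicates 2 to 4 alone they were 0.269 and 0.036 in hypothalamus, and -0.23, 0.404 and 0.088 in hippocampus. These values do not settle whether the number pairs the samples. The values printed are from the fit without pairs unless the block is named.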

Additional observations from a re-analysis of the deposited data

Results flagged for a closer look

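In 4 of the 48 groups looked at, a library lay far from the others of its group by Dixon's criterion at 95%, which chance gives for about 1 group in 20. Rpl30 in hippocampal fructose replicate 1, at 6.69 FPKM, lay above the other 3 fructose libraries. Rpl32 XLOC_020193 in hippocampal control replicate 2, at 12.1 FPKM, lay below the other 3 controls. Rps10 in hippocampal control replicate 3, at 13.7 FPKM, and Rplp1 in hypothalamus control replicate 3, at 34.2 FPKM, lay above the other 3 controls of their groups. Their causes were not tested.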

How the results depend on the processing

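Of the 534 alternative values of the 28 single fold changes and region differences named, 529 kept their direction and side of the threshold. None of the 28 was near the threshold in the main fit, where the lowest adjusted limma p was 0.9997. Keeping the side was thus almost given beforehand, and the count speaks mainly to direction. The hippocampal Rpl30 estimate lay between -3.02 and -2.18 over 19 alternatives and the hypothalamic one between -2.15 and -1.34 over 18, with adjusted limma p from 0.132 and 0.109 up to 1. Rps9 XLOC_001687 lay between -5.40 (pseudocount 0.01) and -1.30 (array weights). Leaving out 1 library at a time gave 0 to 1 ribosomal protein loci past the threshold in hippocampus, and the 1 was Rps9 without control replicate 3. It was also the 1 locus that passed among the 11385 tested in that fit, which leaves out the control that lay with the fructose libraries. With array weights 1 symbol, Rps29, differed between regions (-3.13, adjusted limma p 0.0182), while 339 of the 8239 symbols tested passed in that fit. The cause was not tested. Over the leave-one-out fits the hippocampal fold changes of Rpl32 XLOC_020193 and Rpl36a lay between -0.041 and 0.16 and between -0.022 and 0.15, and that of hypothalamic Rps27a between 0 and 1.62. The hippocampal median over the members lay between -0.15 and 0.094, below 0 in 15 of 19 alternatives, and was highest with array weights. With the replicate block 0 ribosomal protein loci passed in either region, so the block changed no call past the adjusted threshold. Depth is unknown, so low loci cannot be given a counting error.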
